A study of Mus musculus with 23 samples.

Results

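Mif, Ddt and Cd44 were 3 of the 56748 genes in the count table, each found by its symbol, and each symbol occurred once. They encode the cytokine macrophage migration inhibitory factor, its homolog D-dopachrome tautomerase and the hyaluronan receptor CD44. Mif was selected on its lower level in PTX_IT than in CONTROL_IT tumors in earlier results of these data, so in that contrast the values of all 3 genes are given as a description, with no test. The CONTROL_IT tumors of that contrast also enter the other comparisons with CONTROL_IT, the route comparisons and the Mif to Ddt ratio. The Mif p-values and intervals there are therefore not independent of the selection. Ddt and Cd44 were taken with it as its homolog and its co-receptor.

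The study treated B16-F1 melanomas, a mouse melanoma line grown as tumors in DBA/2J mice of 6 to 8 weeks, with pentoxifylline (PTX), a phosphodiesterase inhibitor, norcantharidin (NCTD), a demethylated analog of cantharidin that inhibits protein phosphatases, or both drugs together (MIX). Doses were 60 mg/kg PTX and 3 mg/kg NCTD. Bulk 3′ mRNA libraries were made from 23 tumors in 8 groups. The intraperitoneal groups were CONTROL_IP, given saline, PTX_IP, NCTD_IP and MIX_IP, with 2 tumors each. The intratumoral groups were CONTROL_IT, given dimethyl sulfoxide, NCTD_IT and MIX_IT, with 4 tumors each, and PTX_IT, with 3. All tumors, controls included, came from the same cell line, and the line was made in another mouse strain than the host. The labels name the route as the batch, and vehicle differed with it, so route, vehicle and batch cannot be told apart. The study's methods say that treatment groups were matched for sex, and the sex of each mouse was not given in the sources used here.

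Total counts ran from 2861578 to 6702374 per tumor, with a median of 4013068. The melanoma markers were high everywhere, with a summed level over 8 genes of 16022 to 38203 CPM across the tumors, where CPM is a gene's count scaled to the size of its library. The X-linked RNA Xist and the Y-linked genes Ddx3y and Eif2s3y, which mark the sex of the cells, divided the intratumoral groups. Xist lay between 1.28 and 11.6 CPM in PTX_IT and between 5.19 and 13.6 CPM in NCTD_IT, against 0 to 0.566 CPM in CONTROL_IT and 0 in every MIX_IT tumor. Ddx3y lay between 1.03 and 8.98 CPM in CONTROL_IT and between 6.83 and 15.5 CPM in MIX_IT, and at 0.294 CPM or below in PTX_IT and NCTD_IT. By these markers PTX_IT and NCTD_IT stood apart from CONTROL_IT in every tumor, and MIX_IT did not, which goes against groups matched for sex. Among the intraperitoneal tumors only CONTROL_IP replicate 2 had Xist, at 8.26 CPM.

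MIF is a small secreted protein kept ready-made in many cells. It binds CD74, which signals through CD44 as a partner, and the chemokine receptors CXCR2, CXCR4 and ACKR3. DDT has a similar fold and also binds CD74. CD44 is the main cell surface receptor for hyaluronan and also binds osteopontin and serglycin. Melanoma cells make both MIF and CD44, while CD74 is known best from antigen-presenting cells.

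In the GRCm39 coordinates of the count table, Mif (ENSMUSG00000033307) lies on the minus strand at chr10:75695187-75696074 and Ddt (ENSMUSG00000001666) on the same strand at chr10:75607064-75609248. Cd44 (ENSMUSG00000005087) lies on the minus strand at chr2:102641486-102732010. All are protein-coding. The 250 bases before the start of each gene, from RefSeq on GRCm38.p6, an older build than that of the counts, are shown for all 3 genes because Mif and Ddt are close neighbors and their levels are compared tumor by tumor. They cover chr10:75860278-75860527 for Mif, chr10:75773375-75773624 for Ddt and chr2:102901666-102901915 for Cd44, all on the minus strand. They are written 5′ to 3′ along the gene. Capitals mark matches, on either strand, to the hypoxia response core ACGTG, the cAMP response element TGACGTCA and the GC box GGGCGG.
Mif: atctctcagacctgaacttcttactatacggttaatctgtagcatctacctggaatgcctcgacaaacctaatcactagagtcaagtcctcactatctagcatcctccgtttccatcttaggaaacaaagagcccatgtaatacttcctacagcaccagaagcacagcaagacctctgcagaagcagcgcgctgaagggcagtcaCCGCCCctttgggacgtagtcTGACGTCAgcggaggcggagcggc
Ddt: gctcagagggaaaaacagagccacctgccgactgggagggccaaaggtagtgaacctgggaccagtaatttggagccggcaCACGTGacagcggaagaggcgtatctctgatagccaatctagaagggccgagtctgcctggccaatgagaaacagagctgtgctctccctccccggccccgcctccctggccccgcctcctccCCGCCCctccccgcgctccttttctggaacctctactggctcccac
Cd44: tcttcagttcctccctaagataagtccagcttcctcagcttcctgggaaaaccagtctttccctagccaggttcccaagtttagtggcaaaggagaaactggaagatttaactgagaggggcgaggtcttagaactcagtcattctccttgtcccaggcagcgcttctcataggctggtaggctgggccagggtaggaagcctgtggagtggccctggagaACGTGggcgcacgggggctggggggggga
The Mif window held the cAMP response element, starting 24 bases before the gene, and 1 GC box on the opposite strand. The Ddt window held 1 GC box on the opposite strand and the hypoxia core on both strands, at overlapping positions of 1 palindrome. The Cd44 window held 1 hypoxia core, starting 29 bases before the gene. Of 32536 RefSeq promoter windows of this length, 16.7% held ACGTG, 1.56% held TGACGTCA and 33% held GGGCGG. These matches are descriptions of letters, not of binding.

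Reads from Mif can be shared with processed copies of it elsewhere in the genome. The table lists 9 Mif pseudogenes, of which 4 had any counts. Over their length they matched the 348 coding bases of Mif at 81.6% to 99.1%. The last 90 coding bases of Mif are shown with 4 copies, whose mismatches to Mif are in capitals, since these decide where a read near the end of the coding sequence can be placed. The sequences are from GENCODE transcripts on GRCm39.
Mif: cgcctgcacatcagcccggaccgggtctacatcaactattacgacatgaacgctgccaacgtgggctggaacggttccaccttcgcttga
Mif-ps4: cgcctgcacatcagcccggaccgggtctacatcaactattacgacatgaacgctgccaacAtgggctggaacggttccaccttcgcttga
Mif-ps6: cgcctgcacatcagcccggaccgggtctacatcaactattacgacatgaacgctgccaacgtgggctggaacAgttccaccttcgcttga
Mif-ps1: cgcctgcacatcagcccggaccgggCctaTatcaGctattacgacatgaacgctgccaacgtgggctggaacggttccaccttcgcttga
Mif-ps8: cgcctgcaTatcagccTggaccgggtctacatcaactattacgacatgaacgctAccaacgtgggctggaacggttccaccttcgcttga
Mif-ps6, with 6 mismatches over the whole length and 1 in this stretch, had 223 of the 250 pseudogene counts. Mif-ps4, the closest copy with 3 mismatches, had 0 counts. Mif itself had 377701 counts over the 23 tumors. In any tumor the copies held at most 0.238% of the summed counts of Mif and its copies. How reads that map to several places were treated was not given in the sources used here. Part of Ddt, including exon sequence, overlaps Gm20441 on the same strand, which had 0 counts in all tumors. Reads in the shared stretch may be missing from Ddt. Gm20441 starts at chr10:75607285, so the 3′ end of Ddt, at chr10:75607064, lies outside it. How many reads of these 3′ libraries fall in the shared stretch was not tested. Cd44 overlaps a long noncoding RNA and a small nuclear RNA on the opposite strand, with 2 and 0 counts.

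Mif varied far more among the tumors than Ddt or Cd44. Mif was selected on a difference between groups of these tumors, so its wider span is not independent of that selection. Its level ran from 984 CPM in NCTD_IT replicate 18 to 7272 CPM in CONTROL_IT replicate 12, a 7.39-fold span. The share of all counts taken by Mif was 0.0994% in the lowest tumor (95% Wilson interval 0.096% to 0.103%) and 0.73% in the highest (0.721% to 0.738%), and these intervals cover counting error only. Ddt spanned 2.74-fold, from 28.6 CPM in MIX_IT replicate 23 to 78.6 CPM in CONTROL_IT replicate 11. Cd44 spanned 1.62-fold, from 647 CPM in CONTROL_IT replicate 9 to 1046 CPM in NCTD_IT replicate 17. All 3 genes were counted in every tumor, with at least 118 counts for Ddt, and all passed the filter on low counts in every fit. In bulk tumors, fewer cells of a type and less RNA per cell cannot be told apart.

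**Figure D1:**
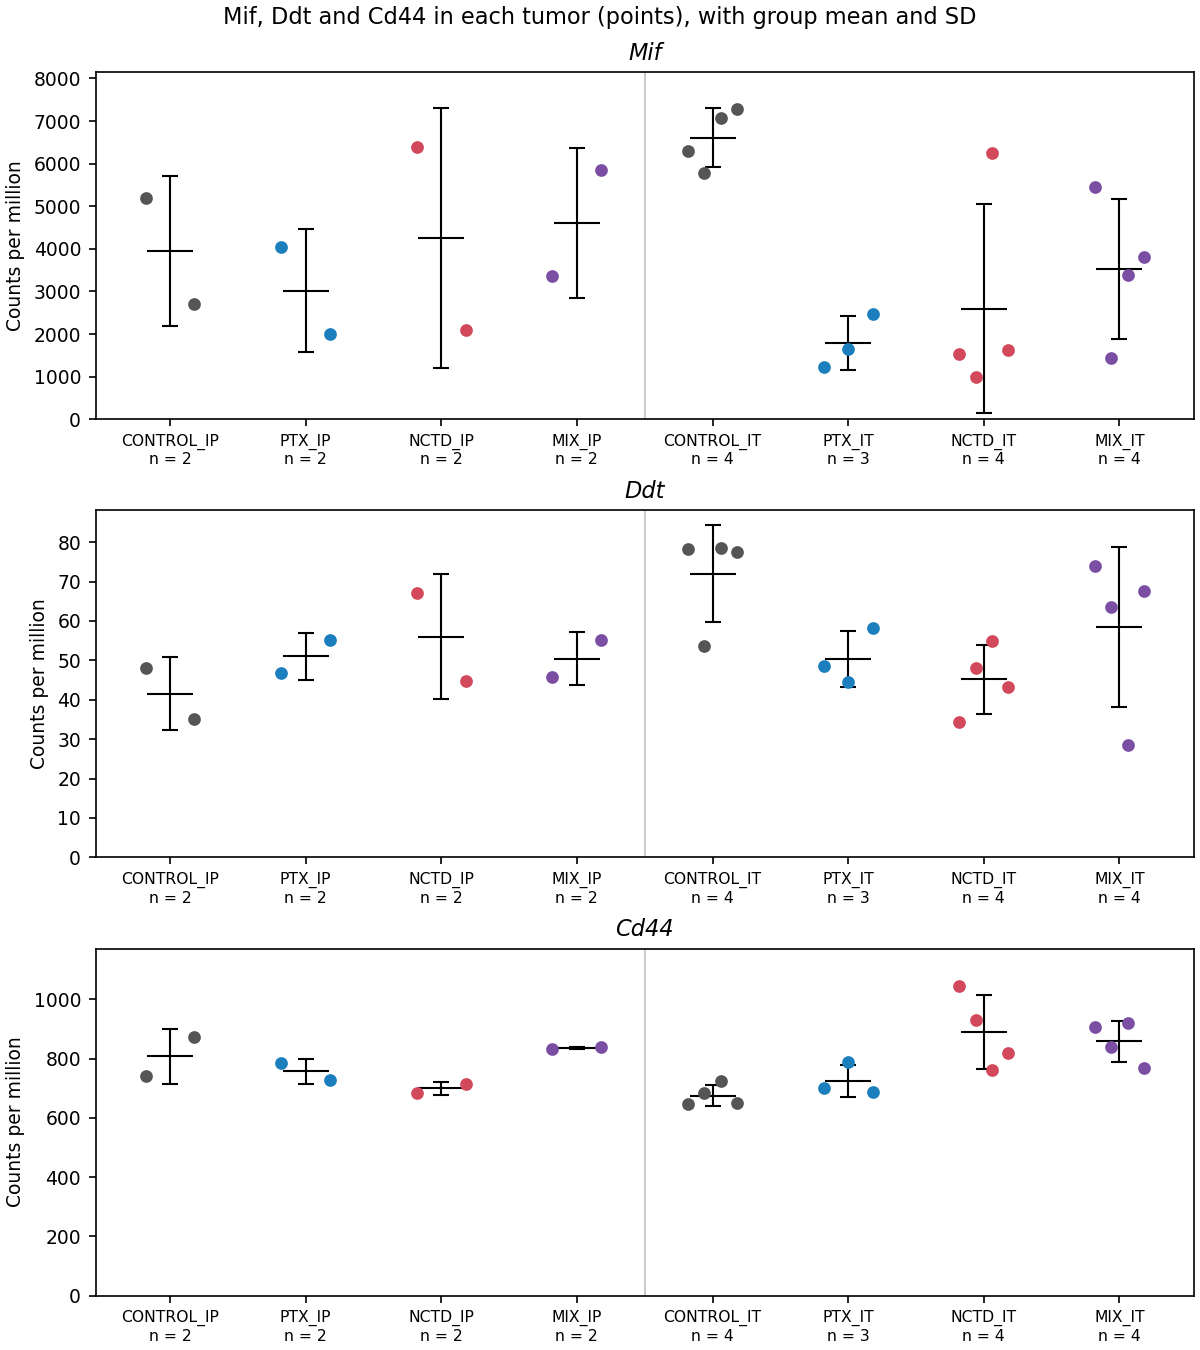
Level of Mif, Ddt and Cd44 in CPM (vertical axes, from 0) in the 8 groups; each point is 1 tumor, the long bar is the group mean and the whiskers are 1 SD. The 4 CONTROL_IT tumors lie between 5782 and 7272 CPM for Mif, above every PTX_IT and MIX_IT tumor, and NCTD_IT replicate 19 lies at 6244 CPM among them.

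In the order of group means, Mif was highest in CONTROL_IT at 6605 ± 692 CPM (SD, n = 4). MIX_IP followed at 4605 ± 1751 CPM, NCTD_IP at 4243 ± 3051 CPM and CONTROL_IP at 3945 ± 1759 CPM (SD, n = 2 each). MIX_IT was at 3518 ± 1642 CPM (SD, n = 4), PTX_IP at 3020 ± 1441 CPM (SD, n = 2), NCTD_IT at 2598 ± 2447 CPM (SD, n = 4) and PTX_IT at 1783 ± 633 CPM (SD, n = 3). The tumors of each group overlapped those of the next group in this order, so no neighbors in it differed beyond their spread. Both the tightest and the loosest groups were intratumoral, with a coefficient of variation of 10.5% in CONTROL_IT and 94.2% in NCTD_IT.

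For Ddt the order was CONTROL_IT at 72 ± 12.2 CPM, MIX_IT at 58.4 ± 20.3 CPM, NCTD_IP at 56 ± 15.8 CPM, PTX_IP at 51 ± 6.04 CPM, MIX_IP at 50.5 ± 6.79 CPM, PTX_IT at 50.4 ± 7.11 CPM, NCTD_IT at 45.1 ± 8.72 CPM and CONTROL_IP at 41.6 ± 9.29 CPM. For Cd44 it was NCTD_IT at 889 ± 126 CPM, MIX_IT at 858 ± 69.9 CPM, MIX_IP at 836 ± 4.37 CPM, CONTROL_IP at 807 ± 93.1 CPM, PTX_IP at 757 ± 41.1 CPM, PTX_IT at 725 ± 55.2 CPM, NCTD_IP at 699 ± 21.3 CPM and CONTROL_IT at 675 ± 35.7 CPM. These are means ± SD over the same numbers of tumors as for Mif, and again every group overlapped the next. CONTROL_IT thus stood first for Mif and Ddt and last for Cd44.

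Intratumoral NCTD was compared with the intratumoral control, whose Mif values were part of the contrast that chose Mif. Mif was at 6295, 5782, 7070 and 7272 CPM in CONTROL_IT and at 1540, 984, 6244 and 1622 CPM in NCTD_IT. In 3 of the 4 NCTD_IT tumors Mif was far below every control, and the other, replicate 19, lay within the control range. The log2 fold change was -1.34 (SE 0.48, 95% interval -2.36 to -0.32), or 2.54-fold lower, with an edgeR p of 0.0131 and an edgeR adjusted p of 0.126. Ddt was at 78.3, 53.7, 78.6 and 77.5 CPM in CONTROL_IT and at 34.3, 48.2, 55 and 43.2 CPM in NCTD_IT. The groups overlapped only through CONTROL_IT replicate 10, the low control, and NCTD_IT replicate 19, the highest treated tumor. The log2 fold change of Ddt was -0.68 (SE 0.25, 95% interval -1.21 to -0.15), with an edgeR adjusted p of 0.137. Cd44 was at 647, 683, 723 and 649 CPM in CONTROL_IT and at 1046, 930, 762 and 819 CPM in NCTD_IT, with no overlap. Its log2 fold change was 0.40 (SE 0.14, 95% interval 0.10 to 0.69), or 1.32-fold higher, with an edgeR adjusted p of 0.119.

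None of the 3 genes passed an edgeR adjusted p of 0.05 in this comparison, where 171 of 12480 genes did (1.37%). All 3 had an unadjusted p under 0.05, as did 21.6% of all genes. Cd44 was 1 of the 7.82% of genes that lay higher in every NCTD_IT tumor than in any control. DESeq2, a second count test, gave Ddt a DESeq2 adjusted p of 0.039, Cd44 0.0711 and Mif 0.144, in a fit that called 10.6% of genes. Leaving out NCTD_IT replicate 19, the treated tumor within the control range, moved the Mif log2 fold change to -2.25, with an edgeR adjusted p of 0.029. Leaving out NCTD_IT replicate 18 moved it to -1.06, with an edgeR adjusted p of 0.278. Over all alternatives the adjusted p of Mif ran from 4.29e-07 without a filter on low counts to 0.968 with Xist in the model, and that last fit turned the Mif difference to 0.25 on the log2 scale. Xist divided these groups in every tumor, so that fit cannot separate Xist from the drug. The part of Xist in the result was not tested.

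The summed markers of other cells also differed in NCTD_IT. The 3 leukocyte genes summed to 10.6 to 72.5 CPM in CONTROL_IT and 50.8 to 228 CPM in NCTD_IT. The 4 neutrophil genes summed to 2.26 to 8.76 CPM and 17.6 to 1089 CPM, with the highest value in NCTD_IT replicate 18, the tumor with the least Mif. The 6 macrophage genes summed to 61.8 to 342 CPM and 198 to 620 CPM. The 5 fibroblast genes summed to 84.7 to 304 CPM and 330 to 1461 CPM. The 3 endothelial genes summed to 24.2 to 51.5 CPM and 55.3 to 114 CPM, and the 3 erythroid genes to 1140 to 6274 CPM and 231 to 1192 CPM. The 8 melanoma genes summed to 27348 to 33114 CPM in CONTROL_IT and 20072 to 28067 CPM in NCTD_IT. NCTD_IT replicate 19, with high Mif, had a melanoma sum of 20398 CPM, near the low end. By edgeR adjusted p, S100a8 and S100a9 were the neutrophil genes that rose and Mitf the melanoma gene that fell, while no leukocyte, macrophage, fibroblast, endothelial or erythroid gene passed. The part of these cells in the 3 genes' values was not tested.

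Intratumoral PTX was the contrast that chose Mif. Mif was at 1228, 1650 and 2472 CPM in PTX_IT, all below the CONTROL_IT tumors, with a log2 fold change of -1.89, or 3.7-fold lower. Mif was 1 of the 4.15% of genes that lay lower in every PTX_IT tumor than in any control. Ddt was at 48.5, 44.5 and 58.3 CPM, which overlapped CONTROL_IT replicate 10, and its log2 fold change was -0.51. Cd44 was at 700, 788 and 687 CPM, within or slightly above the control range, and its log2 fold change was 0.10. Over the whole table, edgeR called 0 of 12480 genes (0%) in this contrast, with 792 at an unadjusted p under 0.05, and DESeq2 called 14. With Xist in the model the Mif value was -0.47 and the Ddt value -0.20. Xist was higher in every PTX_IT tumor than in any control, so that fit cannot separate it from the drug. The fibroblast sum was 219 to 663 CPM in PTX_IT and the leukocyte sum 16.7 to 123 CPM, and their part in these values was not tested.

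Intratumoral MIX was compared with the same 4 controls, so its values share them with the other intratumoral comparisons. Mif was at 5441, 1447, 3385 and 3798 CPM in MIX_IT. Each tumor was below every control, replicate 21 only slightly, and Mif was 1 of the 4.98% of genes with this pattern. The log2 fold change of Mif was -0.91 (SE 0.48, 95% interval -1.92 to 0.10), with an edgeR adjusted p of 0.435. Ddt was at 73.9, 63.5, 28.6 and 67.6 CPM and overlapped the controls, with a log2 fold change of -0.30 (SE 0.25) and an edgeR adjusted p of 0.645. The low Ddt tumor, replicate 23, also had the highest fibroblast sum of all tumors, 7523 CPM, and the lowest melanoma sum, 16022 CPM, whose part in its Ddt value was not tested. The fibroblast sum was above every control in all 4 MIX_IT tumors, at 424 to 7523 CPM against 84.7 to 304 CPM, and its 4 tested genes all had an unadjusted p under 0.05, with a median log2 fold change of 3.53. The MIX_IT sums ran from 47 to 182 CPM for endothelium, against 24.2 to 51.5 CPM in CONTROL_IT, from 13.8 to 21.8 CPM for neutrophils, against 2.26 to 8.76 CPM, and from 25.7 to 82.4 CPM for leukocytes, against 10.6 to 72.5 CPM. No gene of these lists passed by edgeR adjusted p, and the part of these cells in the Mif, Ddt and Cd44 values was not tested. Cd44 was at 906, 840, 919 and 767 CPM, above every control, a pattern shared by 4.93% of genes. The log2 fold change of Cd44 was 0.34 (SE 0.14, 95% interval 0.05 to 0.64), with an edgeR p of 0.0257, where 13% of genes had a p under 0.05, and an edgeR adjusted p of 0.312.

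No gene passed edgeR's adjusted threshold in MIX_IT against CONTROL_IT (0%), with 1622 at an unadjusted p under 0.05 and 228 called by DESeq2. Among the 3 genes DESeq2 adjusted p was 0.0865 for Mif, 0.192 for Cd44 and 0.683 for Ddt. Xist and Ddx3y overlapped between MIX_IT and CONTROL_IT. Against NCTD_IT, the MIX_IT log2 differences were 0.43 (95% interval -0.57 to 1.44) for Mif, 0.37 (-0.16 to 0.90) for Ddt and -0.05 (-0.35 to 0.24) for Cd44, with edgeR adjusted p of 0.877, 0.818 and 0.954. Without NCTD_IT replicate 19 the Mif difference was 1.34 (edgeR adjusted p = 0.557), and without MIX_IT replicate 21 it was 0.14. In that comparison 1 gene passed (0.00801%), the Y-linked Ddx3y.

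**Figure D2:**
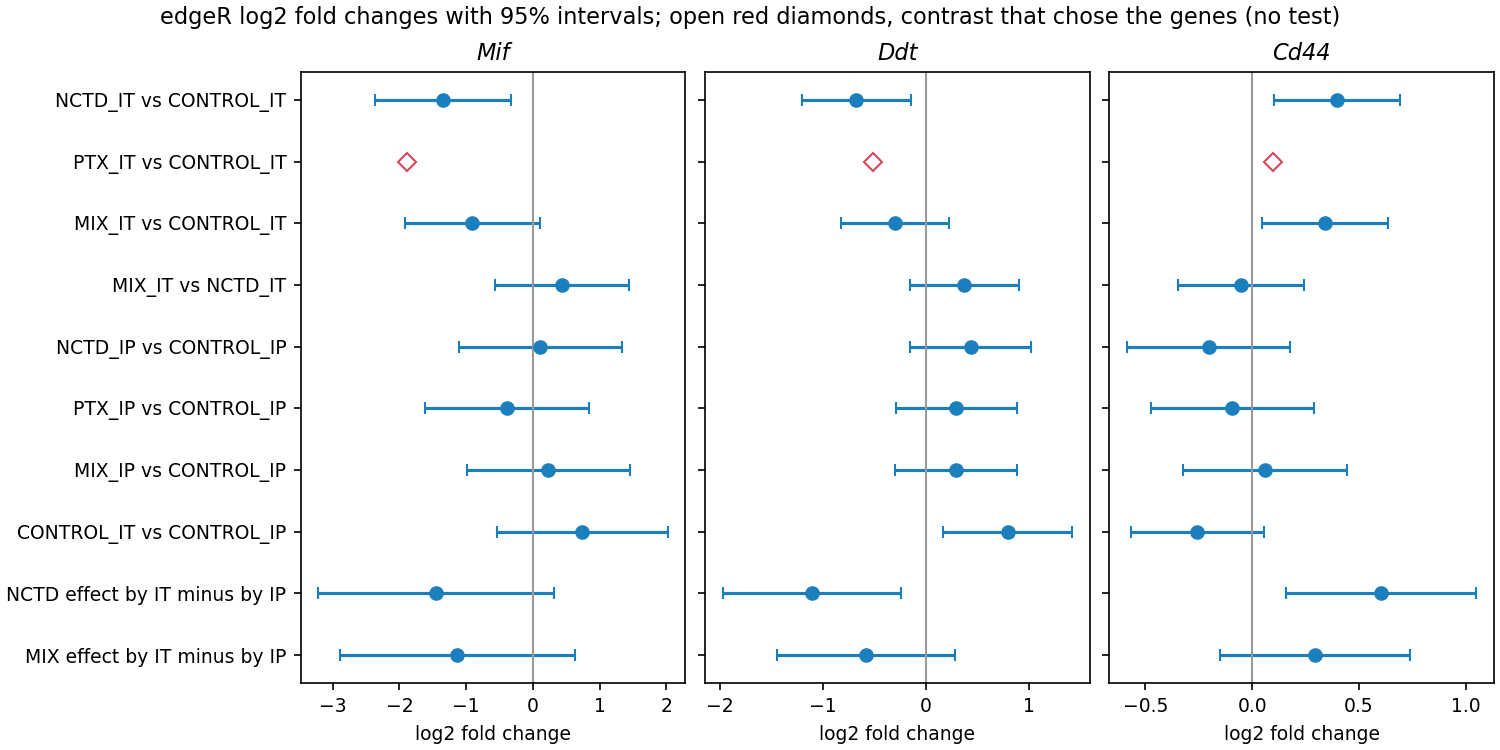
log2 fold changes of Mif, Ddt and Cd44 from edgeR (horizontal axes) in 10 comparisons. Circles carry 95% intervals, and open diamonds, without an interval, mark PTX_IT against CONTROL_IT, the contrast that chose Mif. The comparisons with CONTROL_IT share its 4 tumors, which were also part of the contrast that chose Mif. In NCTD_IT against CONTROL_IT the intervals exclude 0 for all 3 genes, and the intervals of the intraperitoneal drug groups all cover 0.

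The intraperitoneal groups, with 2 tumors each, showed no common direction for Mif. Mif was at 5189 and 2701 CPM in CONTROL_IP, 4039 and 2001 CPM in PTX_IP, 6400 and 2086 CPM in NCTD_IP, and 3367 and 5843 CPM in MIX_IP. Within each group the tumors differed by more than the group means did. The log2 fold changes against CONTROL_IP were -0.39 (SE 0.54) for PTX_IP, 0.11 (SE 0.54) for NCTD_IP and 0.23 (SE 0.54) for MIX_IP, with edgeR adjusted p of 0.969, 0.999 and 0.999. Leaving out single tumors turned the direction of each of these, as in NCTD_IP, where the value ran from -0.92 to 0.71. CONTROL_IP replicate 2, the tumor with Xist, had the lower Mif of the pair.

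Ddt was at 48.1 and 35 CPM in CONTROL_IP, 46.7 and 55.3 CPM in PTX_IP, 67.2 and 44.9 CPM in NCTD_IP, and 45.7 and 55.3 CPM in MIX_IP. The drug groups overlapped the control pair, with log2 fold changes of 0.30, 0.44 and 0.29 (SE 0.26 each). Cd44 was at 741 and 873 CPM in CONTROL_IP, 786 and 728 CPM in PTX_IP, 684 and 714 CPM in NCTD_IP, and 833 and 839 CPM in MIX_IP. NCTD_IP lay below both controls for Cd44, as did 18% of genes, with a log2 fold change of -0.20 (SE 0.17). For PTX_IP and MIX_IP the Cd44 values were -0.09 and 0.06 (SE 0.17 each). In each of the 3 intraperitoneal comparisons edgeR called 0 of 12424 genes (0%), with 446, 659 and 365 at an unadjusted p under 0.05 in NCTD_IP, PTX_IP and MIX_IP, and DESeq2 called 8, 4 and 8.

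The controls of the 2 routes stood apart for all 3 genes, though none passed the adjusted test. Every CONTROL_IT tumor had more Mif and more Ddt than either CONTROL_IP tumor, as did 10.1% of genes, and less Cd44, as did 11.1%. The log2 difference, intratumoral minus intraperitoneal, was 0.74 (SE 0.61) for Mif, 0.79 (SE 0.30) for Ddt and -0.26 (SE 0.15) for Cd44. Ddt had an edgeR p of 0.0155, where 4.84% of 13395 genes had a p under 0.05. The edgeR adjusted p was 0.956 for each gene and edgeR called 0 genes (0%), with 648 at an unadjusted p under 0.05 and 87 called by DESeq2. DESeq2 adjusted p was 0.0536 for Mif, 0.0561 for Ddt and 0.455 for Cd44. The tested difference between the NCTD effects of the 2 routes was -1.45 (SE 0.85) for Mif, -1.11 (SE 0.42) for Ddt and 0.60 (SE 0.21) for Cd44 on the log2 scale. Without NCTD_IT replicate 19 the Mif difference was -2.38 and without NCTD_IP replicate 5 it was -0.42. The edgeR p was 0.102, 0.0145 and 0.0103, where 10.8% of genes were under 0.05, and the edgeR adjusted p was 0.548, 0.362 and 0.329. Xist was present in every NCTD_IT tumor and absent from the NCTD_IP tumors. In this test 1 of the 3 sex markers was higher and 2 were lower at an unadjusted edgeR p under 0.05. The part of sex in these differences was not tested. For MIX the same difference was -1.13 (SE 0.84), -0.58 (SE 0.41) and 0.30 (SE 0.21), with edgeR adjusted p of 0.804, 0.795 and 0.801. In both route tests edgeR called 0 genes (0%), with 1452 and 996 at an unadjusted p under 0.05 and 78 and 6 called by DESeq2.

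The ratio of Mif to Ddt counts within a tumor does not depend on library size. Its log2 value was 6.33, 6.75, 6.49 and 6.55 in CONTROL_IT, 4.66, 5.21 and 5.40 in PTX_IT, 5.49, 4.35, 6.82 and 5.23 in NCTD_IT, and 6.20, 4.51, 6.88 and 5.81 in MIX_IT. All PTX_IT tumors were below the control range, while NCTD_IT and MIX_IT each had 1 tumor above it. The group means were 6.53 ± 0.17 (SD, n = 4) in CONTROL_IT and 5.09 ± 0.39 (SD, n = 3) in PTX_IT, and the latter is given with no test. NCTD_IT, at 5.47 ± 1.02 (SD, n = 4), was 1.06 below CONTROL_IT, with a two-sided exact permutation p of 0.143. MIX_IT, at 5.85 ± 1.00 (SD, n = 4), was 0.68 below, with an exact permutation p of 0.257, where the smallest p these 70 splits allow is 0.0286. In the intraperitoneal groups the means lay between 5.80 and 6.51. Without NCTD_IT replicate 19 the NCTD_IT difference was -1.51, and without MIX_IT replicate 23 the MIX_IT difference was -1.02. The left-out tumor was in each case the 1 above the control range. Every remaining treated tumor then lay below the control range, so each exact permutation p was fixed at 0.0286, the smallest that 3 tumors against 4 allow. These p-values are no evidence of a difference. Without NCTD_IT replicate 18 the NCTD_IT difference was -0.68, with an exact permutation p of 0.229. Without MIX_IT replicate 22 the MIX_IT difference was -0.23, with an exact permutation p of 0.486. MIX_IT replicate 23 had the lowest Ddt of all tumors, 28.6 CPM, and its Mif, at 3385 CPM, was below every control.

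**Figure D3:**
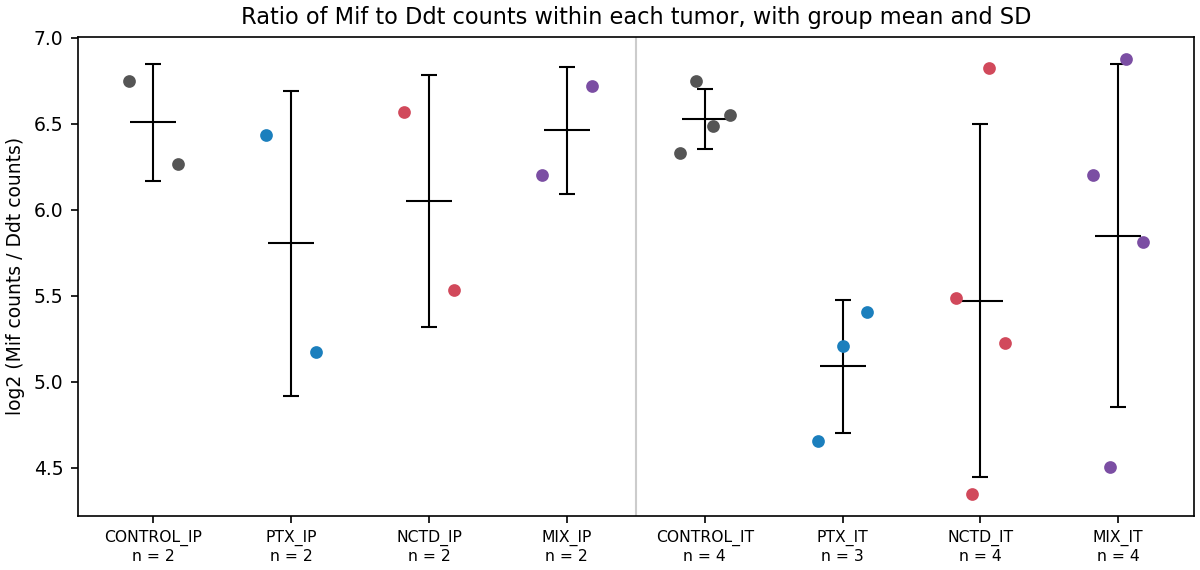
log2 ratio of Mif to Ddt counts (vertical axis) in each tumor of the 8 groups; points are tumors, the long bar is the group mean and the whiskers 1 SD. CONTROL_IT tumors cluster between 6.33 and 6.75, and the NCTD_IT and MIX_IT tumors spread from 4.35 to 6.88.

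Across the 15 intratumoral tumors, 7 had Xist above 1 CPM, all in PTX_IT and NCTD_IT. Of these, 6 had Mif at 2472 CPM or lower, and NCTD_IT replicate 19, with Xist at 5.19 CPM, had Mif at 6244 CPM. Of the 8 tumors without Xist above 1 CPM, MIX_IT replicate 22 had Mif at 1447 CPM, in the range of the Xist tumors. Xist and the drug groups cannot be told apart in PTX_IT and NCTD_IT.

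**Figure D4:**
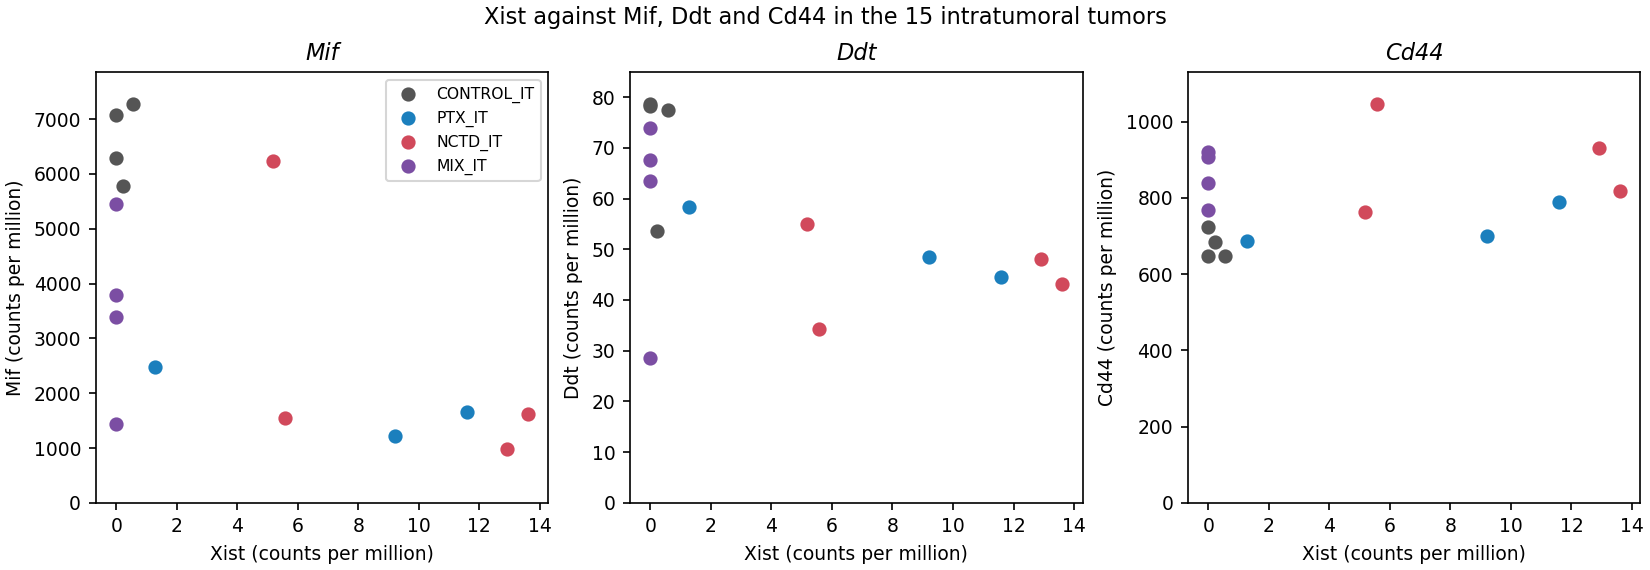
Xist in CPM (horizontal axes) against Mif, Ddt and Cd44 in CPM (vertical axes, from 0) in the 15 intratumoral tumors, colored by group. CONTROL_IT and MIX_IT lie at or near 0 on the Xist axis, and NCTD_IT replicate 19 combines Xist at 5.19 CPM with Mif at 6244 CPM.

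Of the MIF receptors, Cxcr2, Cxcr4 and Ackr3 were read at low levels, at most 13.2, 10.3 and 5.58 CPM, and Cd74 varied widely. Cd74, which encodes the MIF and DDT receptor and chaperones MHC class II, ran from 1.46 CPM in MIX_IT replicate 23 to 157 CPM in PTX_IP replicate 3, a 108-fold span. It was at 3.60, 74.7, 26.2 and 19.2 CPM in CONTROL_IT and at 44.7, 15, 10.7 and 110 CPM in NCTD_IT. In PTX_IT it was at 95.6, 54.1 and 3.60 CPM and in MIX_IT at 3.43, 80.9, 1.46 and 49 CPM. Tumors of the same group differed widely, and the log2 fold changes against CONTROL_IT were 0.53 (SE 1.06) in NCTD_IT, 0.70 (SE 1.14) in PTX_IT and 0.11 (SE 1.06) in MIX_IT, with edgeR adjusted p of 0.814, 0.933 and 0.978. Ptprc, the pan-leukocyte gene CD45, ran from 0.772 to 50.1 CPM over the same tumors. CONTROL_IT replicate 9 had the lowest Ptprc and 3.60 CPM of Cd74, and NCTD_IT replicate 20 had the highest Ptprc and 110 CPM of Cd74.

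**Figure D5:**
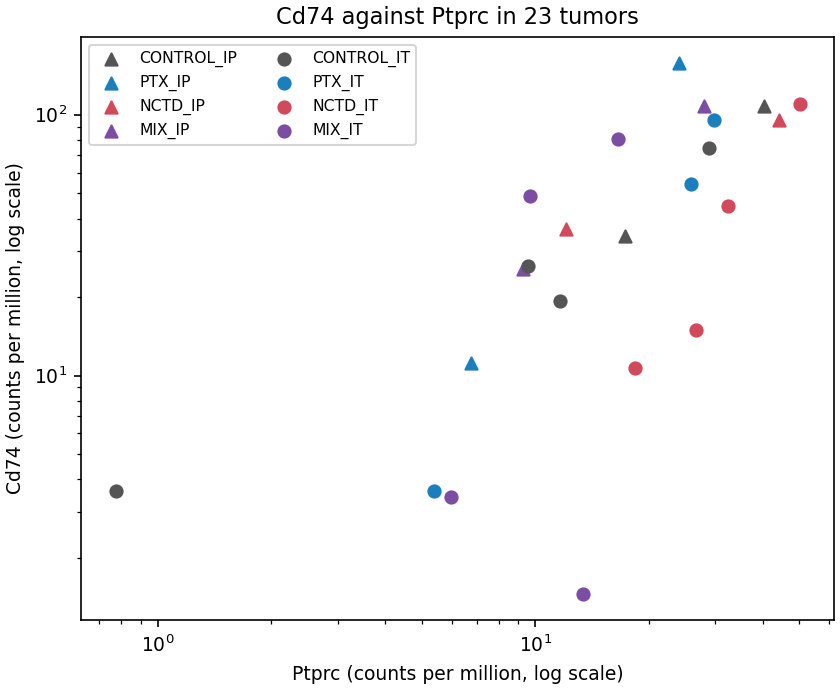
Cd74 (vertical axis) against Ptprc (horizontal axis), both in CPM on log scales, in the 23 tumors; triangles are intraperitoneal and circles intratumoral groups. The 4 tumors with the least Ptprc had 3.43 to 11.1 CPM of Cd74, and MIX_IT replicate 23, at 1.46 CPM of Cd74, lies below the other tumors.

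Cxcr4, a chemokine receptor that MIF can also bind, was at 0.515 to 2.85 CPM in CONTROL_IT and at 2.61, 10.3, 5.19 and 3.73 CPM in NCTD_IT. Its log2 fold change there was 1.68 (SE 0.59), with an edgeR adjusted p of 0.121. Ackr3, the atypical chemokine receptor, was at 2.83 to 4.79 CPM in CONTROL_IT and 0 to 4.41 CPM in NCTD_IT, with an edgeR adjusted p of 0.570. Cxcr2, the receptor of neutrophil chemokines, had no count in 10 tumors and did not pass the filter in the intratumoral fit. It was highest at 13.2 CPM in NCTD_IT replicate 18, the tumor with the highest neutrophil sum, of which Cxcr2 is itself a part.

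Of 44 other genes of the MIF and CD44 pathways, 34 passed the filter on low counts in the intratumoral fit. In NCTD_IT 1 was lower at an edgeR adjusted p of 0.05 and 0 were higher, with 7 higher and 4 lower at an unadjusted p under 0.05, where 1.37% and 21.6% of all genes passed these thresholds. Their median log2 fold change was 0.07, against 0.03 over all genes. The called gene was Mmp14, the membrane protease that sheds CD44. It was at 385, 324, 351 and 267 CPM in CONTROL_IT and at 180, 189, 123 and 210 CPM in NCTD_IT. Its log2 fold change was -0.92 (SE 0.21, edgeR adjusted p = 0.0482). In MIX_IT Mmp14 was at 294, 307, 225 and 152 CPM and overlapped the controls.

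The list of intracellular partners and turnover of MIF had 11 tested genes of 12, and none passed in NCTD_IT. At an unadjusted p under 0.05 its members were Abca1, a lipid exporter used in MIF secretion, at a log2 fold change of 1.58 (SE 0.62), and Rps19, a ribosomal protein that binds MIF, at -0.68 (SE 0.32). Among 11 genes of CD44 linkers, sheddases and splicing, 9 were tested. Msn, which encodes the linker moesin, was at 205 to 291 CPM in CONTROL_IT and 364 to 508 CPM in NCTD_IT, without overlap (log2 fold change 0.70, SE 0.19, edgeR adjusted p = 0.0579). Adam10, another CD44 sheddase, was at 130 to 153 CPM in CONTROL_IT and 180 to 259 CPM in NCTD_IT, also without overlap (log2 fold change 0.60, SE 0.16, edgeR adjusted p = 0.0604). DESeq2 adjusted p was 0.00302 for Msn and 0.00819 for Adam10, in a fit that called 10.6% of genes. Msn and Adam10 were named after their values were seen. Of all genes, 7.82% lay higher in every NCTD_IT tumor than in any control. Rdx, the linker radixin, and Nf2, which encodes merlin, had log2 fold changes of -0.43 and -0.40.

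Of 7 genes of other CD44 ligands and hyaluronan receptors, 5 were tested, with a median log2 fold change of 1.14 in NCTD_IT. Spp1, which encodes osteopontin, was at 17.8 to 67.7 CPM in CONTROL_IT and at 94.7, 232, 37.7 and 105 CPM in NCTD_IT, with an edgeR adjusted p of 0.078. Srgn, which encodes serglycin, was at 23.2 to 183 CPM and 71.9 to 628 CPM, highest in NCTD_IT replicate 18. The hyaluronan synthases Has1, Has2 and Has3 did not pass the filter. Cemip2, which encodes a surface protein reported to degrade hyaluronan, had a log2 fold change of 0.85 (SE 0.32) and an edgeR adjusted p of 0.142. The 3 tested genes of CD74 processing, Ctss, Ctsl and Sppl2a, had a median log2 fold change of 0.29 in NCTD_IT, and none passed. NCTD_IT replicate 18, the intratumoral tumor highest in Spp1 and Srgn, was also the highest in the neutrophil sum, whose part in these values was not tested.

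In MIX_IT none of the 34 pathway genes passed, with 7 higher and 0 lower at an unadjusted p under 0.05, as were 13% of all genes in either direction. Adam10 was at 197 to 239 CPM, above every control, a pattern shared by 4.93% of genes. Its log2 fold change was 0.58 (SE 0.16, edgeR adjusted p = 0.175). In PTX_IT none passed, with 2 higher and 0 lower at an unadjusted p under 0.05, as were 6.35% of all genes. In the intraperitoneal fit 35 of the 44 genes were tested and none passed in any drug group, with at most 1 at an unadjusted p under 0.05, as were 3.59%, 5.3% and 2.94% of all genes in NCTD_IP, PTX_IP and MIX_IP.

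Mif and Ddt have 28 other genes within 200 kb, of which 7 were tested in the intratumoral fit. None passed in NCTD_IT, PTX_IT or MIX_IT. In NCTD_IT their median log2 fold change was -0.22, with 2 lower and 1 higher at an unadjusted p under 0.05, as were 21.6% of all genes. In PTX_IT 2 were higher and 0 lower, against 6.35% of all genes, and in MIX_IT none was under 0.05. Chchd10, which encodes a mitochondrial protein, was at 175 to 235 CPM in CONTROL_IT and 79.3 to 152 CPM in NCTD_IT (log2 fold change -0.74, edgeR adjusted p = 0.0849). Smarcb1, a chromatin remodeling subunit, had a log2 fold change of -0.69. Cabin1, a calcineurin inhibitor, went the other way, at 0.57. Gstt3, a glutathione transferase gene next to Ddt, was at 22.6 to 29.1 CPM in CONTROL_IT and 12 to 28 CPM in NCTD_IT.

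The genes whose log2 CPM followed each member most closely over the 15 intratumoral tumors were named by Pearson's r, with the r over the 8 intraperitoneal tumors beside it. For Mif they were Tefm (0.888), Fuom (0.870), Nsmce2 (0.863), Gypc (0.862) and Rps13-ps1 (0.857). Over the intraperitoneal tumors the same genes had r of -0.287, -0.677, 0.647, -0.007 and -0.182, so only Nsmce2 kept a like value. For Ddt they were Krtcap2 (0.927), Pafah1b3 (0.918), Ndufb9 (0.918), Gna11 (0.916) and Chchd6 (0.913), with 0.258, 0.853, 0.384, 0.487 and 0.669 over the intraperitoneal tumors. For Cd44 they were Tex2 (0.931), Fat1 (0.892), Emcn (0.886), Rasa2 (0.882) and mt-Nd1 (0.878), with 0.065, 0.363, -0.319, 0.086 and 0.582. These are the highest among the 12480 genes of the fit, and the tumors share groups, libraries and cell makeup, so they describe these tumors only. Among the members, r over the intratumoral and the intraperitoneal tumors was 0.564 and 0.504 for Mif with Ddt, -0.496 and -0.019 for Mif with Cd44, and -0.608 and -0.641 for Ddt with Cd44.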

How the data were processed

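The data were whole-tumor 3′ mRNA libraries from 23 tumors. The authors deposited counts per gene, made by quality control with FastQC, trimming with Trimmomatic and alignment and counting with STAR 2.7.11b on GRCm39. Strand setting, treatment of multi-mapping reads and molecular identifiers were not given in the sources used here. Counts from 3′ libraries were not divided by gene length. CPM used TMM factors over all 23 tumors. Groups were compared with edgeR 4.0.16 quasi-likelihood tests in R 4.3.3, fitted over all genes within a route (12480 genes intratumoral, 12424 intraperitoneal) or over 23 tumors (13395 genes), with filterByExpr (minimum count 10, minimum total 15) and Benjamini-Hochberg adjustment at 0.05. DESeq2 1.42.0, other scalings, no filter, other fits and leaving out tumors were alternatives. Per the study's methods cells were implanted on a single flank of each mouse, so the spread between tumors was taken as that between animals. On simulated counts for NCTD_IT against CONTROL_IT (12186 genes tested) edgeR recovered 66.8% of 196 genes changed by 2 on the log2 scale. Of 197 genes changed by 1 it recovered 1.02% (12195 genes tested). In the data 21.6% of genes had an unadjusted edgeR p under 0.05 in this comparison, so these rates hold for the simulated setting only. Ratios were compared by exact permutation. The members and lists were chosen with earlier results of these data known. Named genes were the 3 members, their copies, the pathway genes that passed a test or encode MIF receptors, genes within 200 kb, and the 5 genes most like each member; other pathway genes, neighbors and markers named were chosen after their values were seen. Gene names and sequences came from the count table, RefSeq and GENCODE.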

Additional observations from a re-analysis of the deposited data

Results flagged for a closer look

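Groups of 4 tumors were examined for a single tumor far from the others, by the gap to its nearest neighbor as a share of the group's range. Chance flags about 1 in 20 groups, and 2 of the 9 groups examined were flagged. Mif in NCTD_IT replicate 19 had a gap of 0.879 of the range, at 6244 CPM against 984 to 1622 CPM in the other 3 tumors of its group. This tumor had the smallest library of the series, 2861578 counts, and its Ddt (55 CPM) was the highest and its Cd44 (762 CPM) the lowest of its group. Ddt in CONTROL_IT replicate 10 had a gap of 0.956 of the range, at 53.7 CPM against 77.5 to 78.6 CPM in the other 3 controls. The same tumor had the highest leukocyte sum of its group, 72.5 CPM, and the lowest melanoma sum, 27348 CPM. The part of these values in the 2 gaps was not tested.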

How the results depend on the processing

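Of 465 recomputed values for the 3 genes and the Mif to Ddt ratio, 444 kept their direction and their side of the threshold, or, where no test was run, moved by less than the spread between tumors. No tested main value passed its threshold, so keeping a side meant staying uncalled, and the count does not measure how far values moved. Ddt in NCTD_IT against CONTROL_IT went from -0.676 to -0.296 with Xist as a covariate and still counted as kept. Without a filter on low counts, Mif passed the threshold in NCTD_IT against CONTROL_IT (log2 fold change -1.351), in MIX_IT against CONTROL_IT (-0.921) and in the difference of NCTD effects between routes (-1.479); the cause was not tested. With DESeq2, Ddt passed in NCTD_IT against CONTROL_IT (-0.669). With Xist as a covariate, Mif reversed in NCTD_IT against CONTROL_IT (0.254, edgeR adjusted p 0.968). With the same covariate Mif and Ddt reversed in MIX_IT against NCTD_IT (-1.385 and -0.0494, edgeR adjusted p 0.688 and 0.988). In PTX_IT against CONTROL_IT it moved Mif to -0.473 and Ddt to -0.202. Every PTX_IT and NCTD_IT tumor had more Xist than any CONTROL_IT or MIX_IT tumor, so these fits cannot separate Xist from the drug groups. Leaving out single tumors, Mif ran from -2.253 (without NCTD_IT replicate 19, past the threshold) to -1.062 in NCTD_IT against CONTROL_IT, and Cd44 from -0.127 to 0.0234 (without NCTD_IT replicate 17) in MIX_IT against NCTD_IT, where Mif ran from 0.143 (without MIX_IT replicate 21) to 1.344 (without NCTD_IT replicate 19). The Mif difference of NCTD effects between routes ran from -2.379 (without NCTD_IT replicate 19) to -0.424 (without NCTD_IP replicate 5), and that of MIX effects from -1.7 (without CONTROL_IP replicate 1) to -0.697 (without MIX_IP replicate 8). CONTROL_IT against CONTROL_IP ran from 0.346 (without CONTROL_IP replicate 2) to 1.298 (without CONTROL_IP replicate 1) for Mif. Against CONTROL_IP, Mif ran from -0.919 (without NCTD_IP replicate 5) to 0.714 in NCTD_IP, with -0.286 without CONTROL_IP replicate 2. In PTX_IP Mif ran from -0.988 to 0.158 (without CONTROL_IP replicate 1), with 0.0208 without PTX_IP replicate 4. In MIX_IP Mif ran from -0.202 (without MIX_IP replicate 8) to 0.781, with -0.162 without CONTROL_IP replicate 2. Cd44 ran from -0.206 to 0.0277 (without CONTROL_IP replicate 2) in PTX_IP and from -0.0508 (without CONTROL_IP replicate 1) to 0.183 in MIX_IP. The log2 ratio of Mif to Ddt ran from -1.507 (without NCTD_IT replicate 19, exact p 0.0286) to -0.683 in NCTD_IT. In MIX_IT it ran from -1.022 (without MIX_IT replicate 23, exact p 0.0286) to -0.232. That exact p is the smallest that 3 tumors against 4 allow, and it followed from leaving out the only tumor above the control range. Over all genes, DESeq2 called 1380 where edgeR called 171 in NCTD_IT against CONTROL_IT, 12 against 1 in MIX_IT against NCTD_IT, and 4 to 228 where edgeR called 0 in the other comparisons. Another scaling moved the median of all genes by under 0.1 on the log2 scale in every comparison. Where a left-out tumor leaves a group with 1, that tumor is assumed to vary like the other groups. No paired analysis was possible because each tumor has its own number, shared by no other group. Ddt, at 118 to 407 counts per tumor, is the member whose counting error is largest.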
